A study of Mus musculus with 4 samples.

Results

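The 10 genes described here are immediate early genes: Fos, Fosb, Jun, Junb and Jund, which encode AP-1 subunits, Egr1 and Egr2, which encode zinc finger transcription factors, Atf3, a stress-induced bZIP factor, Ier2, a small nuclear protein, and Zfp36, which encodes the RNA-binding protein tristetraprolin. They were taken by symbol from the probe sets that the array annotation pairs with 1 gene. Each of the 10 had 1 such probe set, so they are 10 of the 19938 genes with at least 1. RNA came from the whole back skin of 4 mice of the C57Bl6 background. All were at postnatal day 22 with hair follicles at rest (telogen), and all skin was collected at ZT22, counted in hours from lights on. The heterozygous mice (het, n = 2) carried 1 mutant and 1 wild-type Bmal1 allele. The knockout mice (KO, n = 2) lacked both copies in the germline, that is in every tissue, and replicates were littermates, per the series' design text. The controls therefore also carried 1 mutant allele. Each mouse gave 1 whole-transcript Affymetrix array.

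Immediate early genes are transcribed within minutes of a growth factor, wound, ultraviolet light or mechanical stimulus, from promoters that are already poised, and without new protein synthesis. Signalling through MAP kinases reaches serum response factor with its ternary complex partners, and CREB, and the transcripts made are short-lived. Fos and Jun proteins pair through leucine zippers to form AP-1, which in skin takes part in keratinocyte differentiation and in the response to wounding, while tristetraprolin binds AU-rich elements in mRNAs and speeds their decay. Because excision of tissue is itself a stimulus, levels of these genes can also move with how skin is handled.

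All 10 genes were measured above the filter on low values, a mean log2 level of 6.67. Values are log2 levels after quantile normalization, and differences are KO minus het, with limma's moderated SE and 95% interval. Probe sets of different genes bind with different strength, so levels were compared between arrays and not between genes. The genotype itself was visible at Bmal1 (gene symbol Arntl), which read 8.90 and 9.08 in the het arrays and 8.29 and 8.16 in the KO arrays, a difference of -0.76 (SE 0.12, limma adjusted p = 0.015). That call was lost without KO array 1 (adjusted p = 0.0575) and when probe sets paired with several genes were also tested (adjusted p = 0.102). The probe set may include probes outside the deleted part.

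Of the 10 genes, 8 read lower on average in the KO arrays and 2 higher, with a median difference of -0.24. Over all 16341 tested probe sets 45.8% read lower, and the median was 0.022. No immediate early gene passed an adjusted p of 0.05 (limma, Benjamini-Hochberg over all tested probe sets), where 1.98% of all tested probe sets passed. That background count was 323 and fell to 0 when probe sets paired with several genes were also tested. At an unadjusted p under 0.05 there were 3, Zfp36, Fosb and Atf3, against 17.9% of all tested probe sets, and all 3 were lower, against 6.38%. With the values as deposited there were 2, Zfp36 lower and Egr2 higher, and after median centring Zfp36 and Fosb, both lower. The shares of all probe sets at that level were 6.83% lower and 17.6% higher as deposited. After median centring of the arrays these shares were 4.87% and 18.6%, beside 6.38% and 11.6% after quantile normalization. Both KO arrays lay below both het arrays for 4 genes, Fosb, Junb, Atf3 and Zfp36, against 22.1% of all tested probe sets. Both lay above for 2, Jund and Egr2, against 27.8%. With 2 arrays a side, the smallest 2-sided p that an exact permutation test of a single gene can give is 0.333, so none was run.

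**Figure D1:**
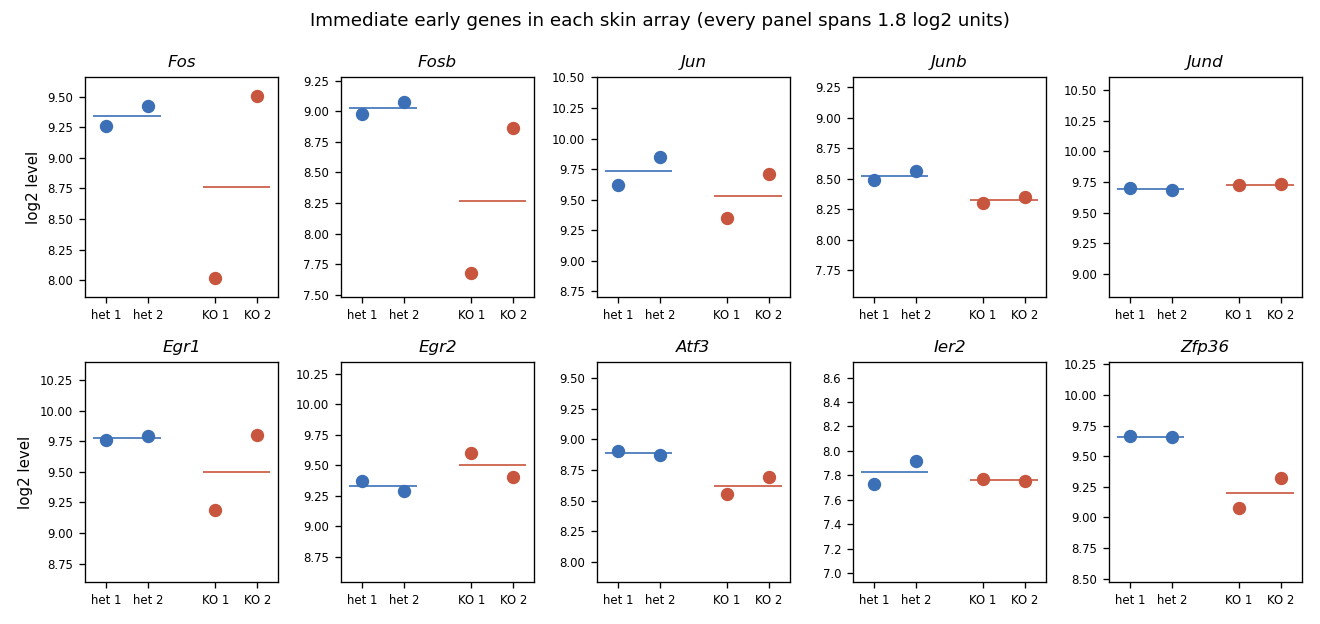
Log2 level of each immediate early gene (y axis) in the 4 arrays (x axis; blue het, red KO), with a line at each genotype's mean; every panel spans the same range, at a different level. For Fos, Fosb and Egr1 KO 1 sits far below the other 3 arrays, and for Fosb, Junb, Atf3 and Zfp36 both KO arrays sit below both het arrays.

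Fos and Fosb were low in 1 of the KO mice. Fos, the founding partner of Jun in AP-1, read 9.26 and 9.42 in het arrays 1 and 2, 8.01 in KO array 1 and 9.51 in KO array 2. KO array 1 was the lowest and KO array 2 the highest of the 4, so that the genotypes overlapped. With means taken on the log2 scale, the KO mean was 66.9% of the het mean, a difference of -0.58 (SE 0.36, 95% interval -1.38 to 0.22, limma adjusted p = 0.432). Without KO array 1 the sign turned (0.16), and without KO array 2 the difference was -1.33. Each of these fits leaves 1 KO array, so the spread between KO mice is not measured and no p-value is given. Fosb, a Fos paralog that also pairs with Jun proteins, was likewise lowest in KO array 1. It read 8.98 and 9.08 in the het arrays, 7.68 in KO array 1 and 8.86 in KO array 2. Both KO arrays lay below the het arrays, one of them by a small margin. The difference was -0.76 (SE 0.29, 95% interval -1.41 to -0.11, adjusted p = 0.209). It shrank to -0.17 without KO array 1 and was -1.35 without KO array 2.

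The promoters of these paralogs are shown because Fosb was the probe set nearest to Fos in its pattern over the arrays. Each sequence is the 250 bases before a RefSeq transcript start (GRCm38.p6), 5′ to 3′ on the gene's strand, at chr12:85473640-85473889 (+) for Fos and chr7:19310046-19310295 (-) for Fosb. Capitals mark TGACG, the half-site of the cAMP response element bound by CREB and ATF proteins, and, in Fosb, GCGNGGGCG, the sequence bound by Egr proteins.
Fos: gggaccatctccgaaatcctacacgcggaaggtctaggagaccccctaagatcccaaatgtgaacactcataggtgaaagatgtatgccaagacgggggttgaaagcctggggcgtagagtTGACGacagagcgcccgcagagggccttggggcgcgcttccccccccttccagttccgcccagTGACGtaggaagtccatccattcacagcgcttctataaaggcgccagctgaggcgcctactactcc
Fosb: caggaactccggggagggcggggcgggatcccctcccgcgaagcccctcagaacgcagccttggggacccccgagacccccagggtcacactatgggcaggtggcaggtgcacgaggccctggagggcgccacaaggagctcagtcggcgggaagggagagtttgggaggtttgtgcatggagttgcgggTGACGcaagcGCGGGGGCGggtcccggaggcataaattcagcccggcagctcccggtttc
Fos holds TGACG at 129 and at 66 bases before its start (first base of the match), and Fosb at 60 bases. The match is read on either strand, and 17.8% of all 32851 windows of this length hold one. The Egr sequence lies 50 bases before the Fosb start, and 4.7% of all windows hold one. This share is not matched for base content: G and C make up 68.8% of the Fosb window, against a median of 52.4% over all windows.

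Jun proteins, which can form AP-1 with Fos or with each other, differed less between the mice. Jun read 9.62 and 9.85 in the het arrays and 9.35 and 9.71 in the KO arrays. KO array 1 was again the lowest, but KO array 2 lay between the het arrays. The difference was -0.20 (SE 0.14, 95% interval -0.53 to 0.12), and -0.025 without KO array 1. It was -0.093 as deposited and -0.057 after median centring. Junb, a Jun paralog that can restrain Jun activity, read 8.49 and 8.56 in the het arrays and 8.30 and 8.35 in the KO arrays. Both KO arrays were lower and close to each other, with a difference of -0.20 (SE 0.11, 95% interval -0.44 to 0.047). It was -0.17 without KO array 1 and -0.22 without KO array 2, but -0.12 with the values as deposited and -0.08 after median centring. Jund, the Jun paralog that is expressed widely without a stimulus, read 9.70 and 9.68 in the het arrays and 9.72 and 9.73 in the KO arrays. It varied least of the 10 genes, over a range of 0.050. Its difference was 0.033 (SE 0.11, 95% interval -0.21 to 0.27). After median centring the difference was 0.18.

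The Egr genes went in opposite directions. Egr1, a growth factor and injury response gene, read 9.76 and 9.80 in the het arrays, 9.19 in KO array 1 and 9.80 in KO array 2. As with Fos, KO array 1 alone was low and KO array 2 read close to the het arrays. The difference was -0.28 (SE 0.18, 95% interval -0.67 to 0.11), and without KO array 1 it turned to 0.027. It was -0.17 as deposited and -0.13 after median centring. Egr2, which is known for its part in Schwann cell myelination and in T cells, read 9.37 and 9.29 in the het arrays and 9.60 and 9.41 in the KO arrays. Both KO arrays were higher, with KO array 1 the highest of the 4. The difference was 0.17 (SE 0.12, 95% interval -0.088 to 0.44), and 0.079 without KO array 1. It was 0.28 as deposited and 0.32 after median centring. The difference between the Egr genes was not itself tested.

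The lower values of Zfp36 and Atf3 did not rest on KO array 1 alone. Zfp36 read 9.66 and 9.65 in the het arrays and 9.07 and 9.32 in the KO arrays, so the groups were apart. With means taken on the log2 scale, the KO mean was 72.7% of the het mean, a difference of -0.46 (SE 0.12, 95% interval -0.73 to -0.19). Its limma adjusted p was 0.0892, the smallest of the 10 genes, at a position of 687 among all tested probe sets when ordered by p. Leaving out KO array 1 gave -0.33, and leaving out KO array 2 gave -0.59. The Zfp36 difference was -0.35 as deposited (limma adjusted p = 0.125) and -0.31 after median centring (limma adjusted p = 0.205). Zfp36 passed with the replicate number of the labels as a block (adjusted p = 0.0382), as did Fosb (adjusted p = 0.024). In that fit 7.56% of all tested probe sets passed. Atf3, which is induced by many stresses and can repress or activate with Jun proteins, read 8.91 and 8.87 in the het arrays and 8.56 and 8.69 in the KO arrays. All KO values were below all het values, with a difference of -0.27 (SE 0.11, 95% interval -0.52 to -0.016, limma adjusted p = 0.249). It was -0.20 without KO array 1, -0.33 without KO array 2, and -0.12 after median centring. Ier2, an immediate early nuclear protein, read 7.73 and 7.92 in the het arrays and 7.77 and 7.75 in the KO arrays. Both KO values lay between the het values, and the difference was -0.062 (SE 0.12, 95% interval -0.33 to 0.21), or 0.031 without het array 2.

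**Figure D2:**
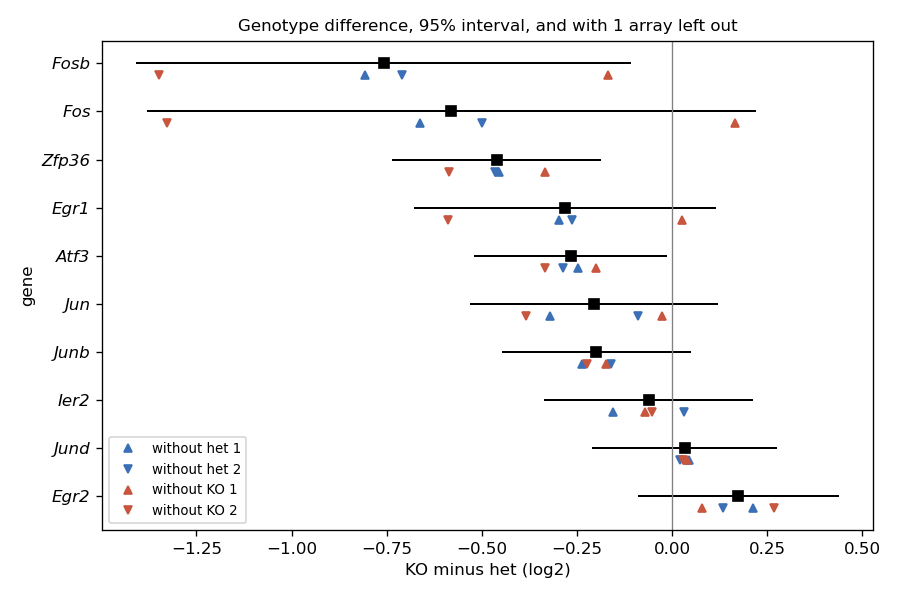
KO minus het difference in log2 units (x axis) for each gene (y axis): black squares and lines are the fitted difference and its 95% interval, and triangles are the difference with 1 array left out. The red triangles of Fos, Fosb and Egr1 lie far apart, those of Zfp36, Atf3 and Junb closer together and all below 0.

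The promoter of Zfp36 is shown because this gene had the smallest p of the 10. The sequence is the 250 bases before its RefSeq start (GRCm38.p6, chr7:28379229-28379478, minus strand, 5′ to 3′), with a CArG box, the element bound by serum response factor, and the Egr sequence GCGNGGGCG in capitals.
Zfp36: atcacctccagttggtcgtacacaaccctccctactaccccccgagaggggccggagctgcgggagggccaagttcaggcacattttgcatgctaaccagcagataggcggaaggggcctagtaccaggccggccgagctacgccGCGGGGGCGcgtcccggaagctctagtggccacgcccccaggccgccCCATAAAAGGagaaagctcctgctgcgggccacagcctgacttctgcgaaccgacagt
The CArG box starts 58 bases before the start and the Egr sequence 105 bases before it. G and C make up 64.8% of the Zfp36 window, against a median of 52.4% over all windows. Of all windows, 1.47% hold a CArG box on either strand. The RefSeq table held windows for 8 of the 10 genes (12 windows, 5 of them for Egr2), and not for Egr1 and Ier2. A CArG box was found for Zfp36 and Egr2, TGACG for Fos, Fosb, Junb, Atf3 and Egr2, and the Egr sequence for Fosb and Zfp36. CACGTG, the E-box bound by BMAL1 with CLOCK, was found in 1 window, of Egr2, 27 bases before the start, against 6.02% of all windows. TGANTCA, the AP-1 site, was found in none of the 12 windows, against 6.75%, and neither was the full element TGACGTCA, against 1.55%. These are matches of letters within 250 bases, on both strands, and not measured binding. TGACG also lies within TGACGTCA.

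KO array 1 was the lowest array for 7 of the 10 genes, as in 17.8% of all tested probe sets. Against het array 1 it was lower for 7 genes (median -0.31; 47.6% of all probe sets lower) and against het array 2 for 8 (median -0.41; 37.1%). KO array 2 was lower than het array 1 for 4 genes (median 0.025; 57% of all probe sets) and lower than het array 2 for 6 (median -0.15; 45%). Between the KO mice the absolute difference had a median of 0.22, against 0.12 over all tested probe sets, and between the het mice a median of 0.077, against 0.14.

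For Fos, KO array 2 stood 2.81-fold above KO array 1, for Fosb 2.27-fold and for Egr1 1.53-fold. A KO pair at least as far apart as that of Fos was found for 0.0918% of tested probe sets, that of Fosb for 0.177% and that of Egr1 for 0.906%. The 14 other probe sets at or beyond the Fos gap belonged to Gm7982, A530040E14Rik, Mir680-1, Mir680-2 and Snord35b. Of these, 13 also differed by at least 1 log2 unit between the het arrays, where Fos differed by 0.16. Xist read between 12.26 and 12.41 in all 4 arrays, and the Y-linked gene Eif2s3y between 3.43 and 3.67, so that no array stood apart in these sex-linked transcripts. Over the whole array, KO array 1 correlated with KO array 2 at 0.988 across tested probe sets, the highest of the 6 pairs, and with het array 2 at 0.966, the lowest. Its deposited values were the most spread, with quartiles of 6.11 and 8.85 around a median of 7.45, where the other arrays had lower quartiles of 6.27 to 6.45, medians of 7.46 to 7.54 and upper quartiles of 8.70 to 8.80. After quantile normalization it was the highest array for 35.3% of tested probe sets and the lowest for 17.8%.

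**Figure D3:**
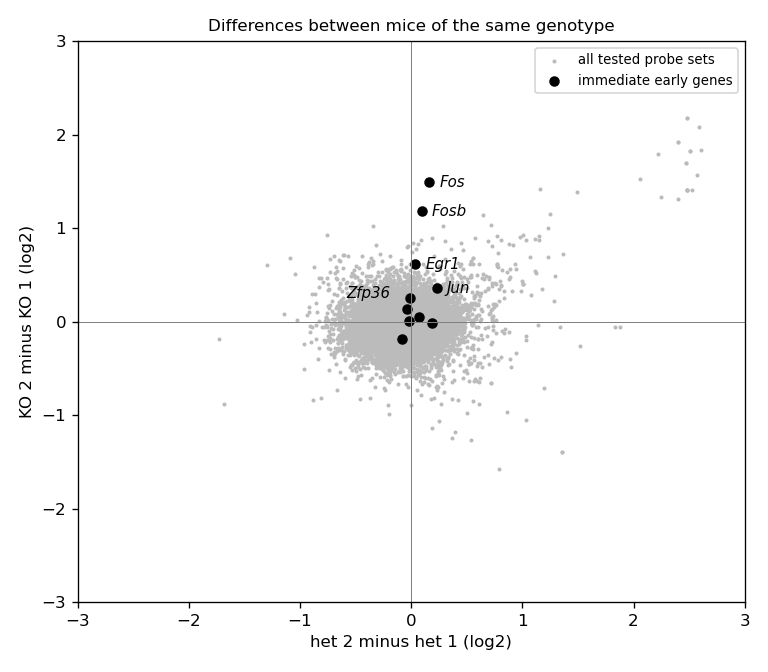
Difference between the het mice (x axis, het 2 minus het 1) and between the KO mice (y axis, KO 2 minus KO 1), both in log2 units, for every tested probe set (grey) and the immediate early genes (black). Fos, Fosb and Egr1 lie high on the y axis and near 0 on the x axis.

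By pattern over the 4 arrays, Fosb was the nearest of all tested probe sets to Fos, with a root mean square distance of 0.14 between values centred on each gene's mean. The next 4 were Olfr1495 (0.20), Lce3a (0.22), Olfr1265 (0.26) and Olfr320 (0.26). The olfactory receptor Olfr1495 read 6.13 in KO array 1 and between 6.89 and 7.17 in the others, near the filter level of 6.67, and Lce3a, a cornified envelope gene, read 6.16 there and between 7.08 and 7.73 elsewhere. Among the other immediate early genes Egr1 came at position 23 (0.35), Jun at 214 (0.44) and Zfp36 at 230 (0.45), while Egr2 was at 13214 (0.71). With 4 arrays many probe sets can share a profile, and the distance is a description.

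KO array 1 was the lowest array for 4 of the 40 other early response genes tested, Nr4a1, Mcl1, Tiparp and Errfi1 (10%, against 17.8% of all tested probe sets); the last 3 were named after their values were seen. Of 43 other early response genes listed, 40 were tested, and 22 read lower and 18 higher in the KO arrays. The median was -0.0043, which turned to 0.049 with the values as deposited and to 0.085 after median centring. None passed the adjusted threshold, and 4 lower and 2 higher were at an unadjusted p under 0.05, against 6.38% and 11.6% of all probe sets. These counts were 1 lower and 4 higher as deposited, against 6.83% and 17.6% of all probe sets. After median centring they were 0 lower and 6 higher, against 4.87% and 18.6%. Those lower were Zfp36l2, a tristetraprolin paralog (-0.36, SE 0.11), Socs3, a feedback inhibitor of cytokine receptors (-0.35, SE 0.12), and the Krüppel-like factors Klf2 (-0.31, SE 0.13) and Klf4 (-0.27, SE 0.12). A second Socs3 probe set differed by 0.061. Those higher were the kinase Pim1 (0.31, SE 0.12) and Gadd45b (0.27, SE 0.11). Klf2, Klf4 and Gadd45b were named after their values were seen. Zfp36l2 read 11.22 and 11.10 in the het arrays and 10.80 and 10.80 in the KO arrays, so that this gene, like Zfp36, was lower in both KO mice. Closest to Fos in kind, the Fos relatives Fosl1 (-0.18, SE 0.22) and Fosl2 (0.12, SE 0.12), the Egr relative Egr3 (0.014, SE 0.13) and the orphan receptor gene Nr4a1 (-0.22, SE 0.16) did not pass at either level. Fosl2 read 9.57 in KO array 1, the highest of its 4 values.

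Dusp1, the immediate early MAP kinase phosphatase, read 10.67 and 10.48 in the het arrays, 10.07 in KO array 1 and 10.77 in KO array 2, lowest and highest in the same arrays as Fos. Its difference was -0.15 (SE 0.20), or 0.20 without KO array 1 and -0.50 without KO array 2. Of the 15 genes that limit the response, all tested, 9 read higher and 6 lower, and 5 were at an unadjusted p under 0.05, all higher, against 11.6% of all probe sets. The 5 were the MAP kinase phosphatases Dusp4 (0.83, SE 0.18, limma adjusted p = 0.0512), Dusp10 (0.41, SE 0.13) and Dusp6 (0.30, SE 0.11) and the Sprouty genes Spry2 (0.34, SE 0.12) and Spry4 (0.38, SE 0.15), receptor tyrosine kinase antagonists. The smallest difference over the alternatives was 0.29 for Dusp10 (without het array 1) and 0.25 for Spry2 (without KO array 1). It was 0.21 for Dusp6 and 0.17 for Spry4, both without het array 2. Dusp6 and Spry4 were named after their values were seen. Dusp4 read 7.60 and 7.07 in the het arrays and 8.32 and 8.003 in the KO arrays, with both KO mice above both het mice. Its difference was 0.56 without het array 2, and it passed the adjusted threshold with the values as deposited and after median centring. Nab2, a corepressor of Egr proteins, differed by -0.0067 (SE 0.13). The list's median was 0.0011, and 0.15 after median centring, 0.11 as deposited, -0.017 without het array 1 and -0.021 without KO array 1.

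Upstream of the immediate early genes, 19 of 25 listed ligands, kinases and transcription factors were tested, with 11 higher and 8 lower. At an unadjusted p under 0.05 were 3 of the 19, against 17.9% of all probe sets. All 3 were higher: the MEK genes Map2k2 (0.35, SE 0.11) and Map2k1 (0.34, SE 0.13) and the RSK2 gene Rps6ka3 (0.41, SE 0.13), kinases of the ERK pathway. Their smallest differences over the alternatives were 0.30 for Map2k2 (without KO array 1), 0.20 for Map2k1 and 0.25 for Rps6ka3 (both without het array 2). Map2k2 read 9.36 and 9.38 in the het arrays and 9.77 and 9.68 in the KO arrays. Srf, which encodes serum response factor, differed by 0.083 (SE 0.13). The list's median was 0.036, and -0.021 without het array 2 and -0.044 without KO array 1. Of 14 bZIP genes whose proteins can pair with Fos or Jun, 12 were tested and 10 read lower, by a median of -0.045. After median centring 5 read lower and the median was 0.0175. Only Batf, an AP-1 factor of lymphocytes and dendritic cells, was at an unadjusted p under 0.05 (-0.40, SE 0.16), against 17.9% of all probe sets. Batf read 7.85 and 7.46 in the het arrays and 7.39 and 7.13 in the KO arrays, and its difference was -0.20 without het array 1 and -0.59 without het array 2.

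Among 14 mRNAs described as bound by tristetraprolin, such as those of cytokines, 9 were tested. Of these, 6 read lower and 3 higher, with a median of -0.048, which turned to 0.0090 after median centring and to 0.089 without het array 1. None was at an unadjusted p under 0.05 in this limma fit. As deposited 1 lower and 1 higher were, against 6.83% and 17.6% of all probe sets. After median centring 1 lower and 1 higher were, against 4.87% and 18.6%. Without a trend, with a robust prior and with the replicate block there was 1, lower, against 6.45%, 6.51% and 8.48%. The list's median was -0.15 without het array 2. The cytokine mRNAs of Il6, Il10, Il23a and Csf2 and the chemokine mRNA of Cxcl2 lay under the filter.

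Handling of tissue can also induce heat shock and stress genes. KO array 1 was the lowest array for 0 of the 12 tested, against 17.8% of all tested probe sets. Of 12 tested, 10 read higher in the KO arrays, with a median of 0.12. Centred on each gene's mean, their average was 0.084 in KO array 1 and 0.056 in KO array 2, against 0.019 and -0.16 in het arrays 1 and 2. For the immediate early genes the same averages were -0.32 and 0.064 in the KO arrays and 0.099 and 0.16 in the het arrays. At an unadjusted p under 0.05 were 3 of the 12, all higher, against 11.6% of all probe sets. The 3 were the chaperone genes Hsph1 (0.49, SE 0.14), Hspd1 (0.27, SE 0.11) and Hsp90aa1 (0.34, SE 0.15). Their smallest differences over the alternatives were 0.36 for Hsph1 (without KO array 1), 0.24 for Hspd1 (without KO array 2) and 0.12 for Hsp90aa1 (without het array 2). Hspa1a, an inducible HSP70 gene, read 10.05 and 9.70 in the het arrays and 9.72 and 9.93 in the KO arrays, with overlapping groups. Whether time from death to RNA or other handling differed between the mice was not tested.

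**Figure D4:**
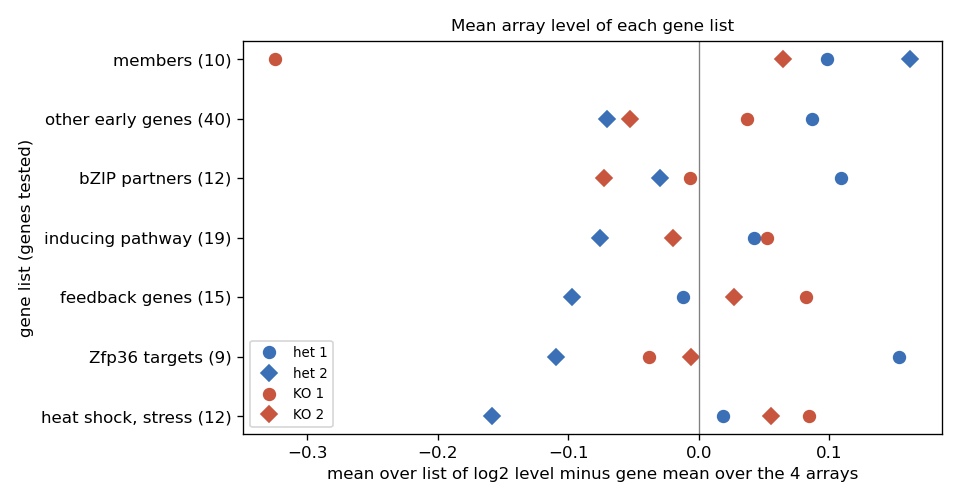
Average over each gene list (y axis, with the number of genes tested) of the log2 level minus the gene's mean over the 4 arrays (x axis); blue is het, red is KO, circles are number 1 and diamonds number 2. The immediate early genes in KO 1 average -0.32, and the lowest average among the 6 other lists drawn is -0.16, of the stress genes in het 2. Among marker lists not drawn, sebocyte genes average -0.57 in het 2 and skeletal muscle genes -0.46 in het 1.

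Whole skin mixes cell types, so fewer cells of a type and less RNA per cell cannot be told apart. Markers of basal and suprabasal keratinocytes and of fibroblasts, 18 genes, were all above the filter, as the label of skin requires. All 7 skeletal muscle markers were higher in both KO arrays than in both het arrays, against 27.8% of all tested probe sets. Their median difference was 0.53. Their summed log2 level was 14.91 and 14.94 in the het arrays and 15.59 and 15.34 in the KO arrays. Of all tested probe sets 45.8% read lower on average in the KO arrays and the rest higher. Sebocyte markers were higher for 6 of 6, by a median of 0.67, with sums of 13.92 and 13.42 in the het arrays and 14.26 and 14.24 in the KO arrays. Macrophage markers read lower for 4 of 6 (median -0.085; sums 12.50 and 12.23 against 12.15 and 12.26), and those of Langerhans and antigen-presenting cells for 4 of 6 (median -0.17; sums 13.61 and 13.43 against 13.21 and 13.23). The 2 of these that read higher were the Langerhans cell marker Cd207 (0.14) and H2-Ab1 (0.020), both named after their values were seen. Of the T cell markers 3 were tested and all 3 read lower (sums 9.83 and 9.72 against 9.66 and 9.61), and of the neutrophil markers 2 were tested, with S100a8, Ly6g, Csf3r and Ltf under the filter. The part of these shifts in the immediate early gene values was not tested.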

How the data were processed

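Skin RNA of 4 mice was labelled with biotin after amplification with the Ambion WT kit, per the labels' protocols. Affymetrix Expression Console 1.1.1 and PLIER 2.0 are named, with no role stated, per the submitters' processing notes. The deposited values, 1 table of 35557 probe sets, were taken to be log2 from their range of 2.54 to 14.87. Scale, centring and build are not given in the sources. A probe set combines several probes, so that a change confined to some exons can be missed, and arrays give no read depth: their number limits the precision. No 2 arrays had over 0.104% of values in common.

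Quartiles of the arrays differed by up to 0.337, above a limit of 0.1, so the 4 arrays were quantile normalized. The array annotation gave 1 gene for 21789 probe sets, several for 1621 and none for 12147. A GRCm38.p6 table updated 21698 symbols. Tested were the 16341 probe sets with 1 gene and a mean over the arrays past the 25th percentile of their kind. The test was limma 3.58.1 (R 4.3.3; lmFit, eBayes with an intensity trend, 2 residual degrees of freedom), adjusted over all of them. For a gene with several probe sets the one with the highest mean stands. The test was checked on simulated data. P-values and intervals rest on the spread between these mice, which limma moderates with a trend over all tested probe sets. They therefore do not measure the spread of a single gene alone. Fos, with an SD of 0.12 in the het and 1.05 in the KO arrays, had a moderated SE of 0.36.

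The 10 genes and all lists were chosen with earlier results of these data known. Fosl1, Fosl2 and Maff are on both the early gene and the bZIP list, Ptgs2, Ier3 and Myc on both the early gene and the tristetraprolin list, and Ppp1r15a on both the early gene and the stress list. Named are the 10 genes, Arntl, the 3 genes of each other list with the smallest p among those at an unadjusted p under 0.05, and Fosl1, Fosl2, Egr3, Nr4a1, Dusp1, Srf, Nab2, Hspa1a and Hspa1b whatever their values (Hspa1b had no probe set with 1 gene), and the 5 genes nearest to Fos. Alternatives were median centring, the deposited values unscaled, 64 added on the linear scale, filters at the 50th percentile or none, a robust prior or one with no trend in eBayes, 1 probe set per gene, the replicate number as a block, and each array left out in turn. Testing probe sets with several genes too was added after the data were seen. Where this leaves 1 array of a genotype, its variance is assumed to be that of the other genotype. Promoter windows are RefSeq's (GRCm38.p6), without the bases after the start.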

Additional observations from a re-analysis of the deposited data

How the results depend on the processing

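No immediate early gene passed the adjusted threshold in 12 of 14 alternatives. There were 2 with the replicate number as a block (Fosb and Zfp36, where 1235 of all probe sets passed). With 1 array left out there were 0 to 2, the 2 being Fos and Fosb without KO array 2, against 1.84% of all probe sets. The count at an unadjusted p under 0.05 ran from 1 to 6 with 1 array left out. It was 1 without KO array 1 (Zfp36), against 10.1% of all probe sets, and 6 without KO array 2, against 13.7%. The count with both KO arrays below both het arrays ran from 4 to 7 in these fits. There the share of all probe sets ran from 29.6% to 39.3%, against 22.1% with all 4 arrays. A fit with 1 array of a genotype does not measure the spread between its mice, so these counts are descriptions. The median difference stayed below 0 in all 14, from -0.36 without KO array 2 to -0.048 without KO array 1. It was -0.14 as deposited and -0.10 after median centring, where the median of all probe sets was 0.10. With 1 array left out Fos ran from -1.33 to 0.16 and Egr1 from -0.59 to 0.027, both with the sign turned without KO array 1, and Ier2 from -0.15 to 0.031, with the sign turned without het array 2. Ier2 was not tested with the filter at the 50th percentile. The Arntl difference ran from -0.85 to -0.64 over all alternatives and from -0.85 to -0.68 with 1 array left out, and lost its call without KO array 1 (-0.83, adjusted p = 0.0575) and with probe sets of several genes also tested (-0.76, adjusted p = 0.102).

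The number of all probe sets past the threshold was 323, and 0 when those with several genes were also tested, 43 without KO array 1, 145 without a filter, 221 without a trend, 441 with the filter at the 50th percentile, 544 as deposited, 913 after median centring, 950 without het array 1 and 1235 with the block. The cause was not tested. The design text calls replicates littermates, but the labels do not say that the replicate number marks a litter. Whether litter goes with genotype or with this number therefore cannot be told from the labels. Deviations from the genotype means correlated at 0.167 between arrays of the same number, a value that 2 arrays a side make equal for both numbers. Signals near background compress differences, which limits what can be said of genes under the filter.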
